A study of Locusta migratoria with 12 samples.

Results

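The comparison described here sets the fat body of adult female migratory locusts (Locusta migratoria) on day 6 after adult eclosion against that on day 2. It rests on 6 of the series' 12 small RNA libraries, the 3 labelled day 6 and the 3 labelled day 2, chosen by their age labels alone. The other libraries are 3 of day 4, shown beside the comparison where stated, and 3 of day 0, which entered no fit and served only in 1 alternative way of joining rows. All groups share the species, the sex and the tissue, no treatment or strain is labelled, and eclosion is the moult that turns the last nymph into an adult. The labels do not say whether the 3 libraries of an age came from separate animals or how many animals a library holds, so a p-value here speaks only of the scatter among these libraries, and that scatter may be technical.

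The fat body is the insect organ that combines the work of liver and adipose tissue: it stores lipid and glycogen, answers to insulin-like and steroid signals, and in adult females makes vitellogenin, the yolk protein precursor. In female locusts juvenile hormone rises in the days after eclosion, and the fat body first grows and then turns to vitellogenin synthesis, so that the interval from day 2 to day 6 covers part of that passage. miRNAs are short RNAs, cut from a hairpin precursor whose arms are written 5p and 3p, that lower the output of messenger RNAs to which they pair through the seed near their 5′ end.

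The deposited table gives raw counts per mature miRNA name. Rows of several species that counted the same reads were joined, with arthropod names only, into 63 miRNAs, which held 602454 to 1684444 counts in the day 6 libraries and 687078 to 2258428 in the day 2 libraries. Of these, 61 had enough counts to be tested. Levels are normalised CPM, counts of a miRNA relative to the joined total of its library, scaled to a common library size with TMM factors over the 6 libraries, and a change is called where edgeR's quasi-likelihood test gives an adjusted p (Benjamini-Hochberg, over the 61) under 0.05. Across the 61 miRNAs on the log2 scale, pairs of day 6 libraries correlated at 0.953 to 0.968, pairs of day 2 libraries at 0.981 to 0.987, and pairs of different ages at 0.951 to 0.973. The day 6 libraries thus differed among themselves about as much as they differed from the day 2 libraries, while the day 2 libraries lay closer together.

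miR-8-3p, which acts on insulin signalling and growth in the Drosophila fat body and is needed for yolk production in mosquitoes, took a larger share of every day 6 library than of any day 2 library. It held 60.4, 60.8 and 59.8% of the counts in the day 6 libraries, against 48.5, 44.2 and 44.7% in the day 2 libraries. The mean share was 60.3 ± 0.478% on day 6 and 45.8 ± 2.38% on day 2 (SD, n = 3 each), a difference of 14.6 percentage points (two-sided exact permutation test, p = 0.1, the smallest that 3 against 3 allows). The next 9 miRNAs by mean level together held 29.7 ± 0.154% on day 6 and 41.6 ± 1.26% on day 2. The remaining 53 held 9.92 ± 0.342% on day 6 and 12.6 ± 1.24% on day 2. As shares must sum to the same total, a larger share of 1 miRNA lowers those of the others, and in bulk tissue fewer cells of a type cannot be told apart from less of a miRNA per cell.

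When miR-8-3p was set aside and the shares were taken of what remained, some abundant miRNAs had lower and some higher mean shares on day 6. miR-184-3p held 7.32 ± 0.663% on day 6 and 11.4 ± 1.58% on day 2, and bantam-3p, which promotes growth and blocks cell death in flies, held 12.1 ± 2.98% on day 6 and 16.4 ± 2.90% on day 2. miR-276-3p, known in locusts for its part in synchronous egg hatching, held 20.4 ± 1.61% on day 6 and 23.2 ± 2.14% on day 2. The shares of miR-9c-5p, 6.81 ± 0.564% on day 6 and 5.53 ± 0.377% on day 2, and of miR-2a-3p, 3.70 ± 0.492% on day 6 and 2.83 ± 0.314% on day 2, lay the other way. Of these 5, the libraries of the 2 ages did not overlap for miR-184-3p, miR-9c-5p and miR-2a-3p. Nor did they for miR-14-3p, which held 9.12 ± 6.75% on day 6, with 16.9% in replicate 3, and 4.76 ± 0.173% on day 2. miR-8-5p, miR-275-3p and miR-306-5p also had higher mean shares on day 6, with overlap.

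**Figure D1:**
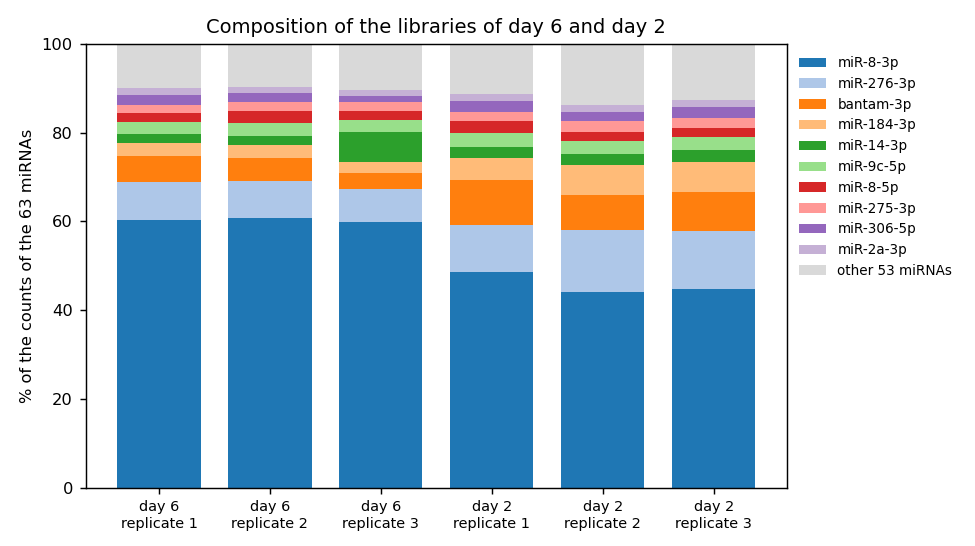
Share of the counts of the 63 miRNAs (%, y axis) held by the 10 most abundant miRNAs and by the other 53 in each library, with the 3 day 6 libraries left of the 3 day 2 libraries. The miR-8-3p segment spans 59.8 to 60.8% in the day 6 libraries and 44.2 to 48.5% in the day 2 libraries.

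The test called 4 of the 61 miRNAs (6.56%), 1 higher on day 6 (1.64%) and 3 lower (4.92%). At an unadjusted p under 0.05 there were 15 (24.6%), 4 higher (6.56%) and 11 lower (18.0%). Scaled by total counts instead, the test called 1 higher and 10 lower, and the median over all 61 log2 changes moved to -0.25, against 0.045 with TMM factors, so that directions of small changes depend on the scaling. With DESeq2 5 were called higher and 6 lower. DESeq2 gave no adjusted p for some miRNAs of low counts, such as miR-282-5p, so its adjustment ran over fewer than 61.

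miR-8-3p was the miRNA that rose. It stood at 713766, 627883 and 678665 CPM in the day 6 libraries, against 451647, 353567 and 433353 CPM in the day 2 libraries, with no overlap, and was 0.71 log2 units higher (SE 0.14, adjusted p = 0.0237, higher in 3 of 3 day 6 libraries). Its means were 673438 ± 43179 CPM on day 6 and 412856 ± 52154 CPM on day 2 (SD, n = 3 each, as for all means below). The rise was 0.40 with total counts, and was still called.

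miR-9a-5p, which in flies limits the number of sensory organ precursors, fell the most of the 4. Its levels were 3645, 1849.7 and 1619.9 CPM in the day 6 libraries, against 6791, 7160.4 and 7312 CPM in the day 2 libraries. The first day 6 library was the highest of its age, and all 3 lay below every day 2 library. Its log2 change was -1.58 (SE 0.32, adjusted p = 0.0237). miR-31a-5p, a miRNA shared by insects and vertebrates, fell by 1.19 (SE 0.23, adjusted p = 0.0237). It stood at 3473, 2342 and 2456 CPM in the day 6 libraries, against 6394, 5482 and 7005 CPM in the day 2 libraries. miR-184-3p, which in female flies acts in the germ line and in locusts has been tied to moulting, fell by 0.78 (SE 0.17, adjusted p = 0.0266). Its levels were 34920, 32010.4 and 30068 CPM in the day 6 libraries, against 45761, 54070.3 and 66776 CPM in the day 2 libraries, and the day 6 libraries lay within a narrower range than the day 2 libraries.

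**Figure D2:**
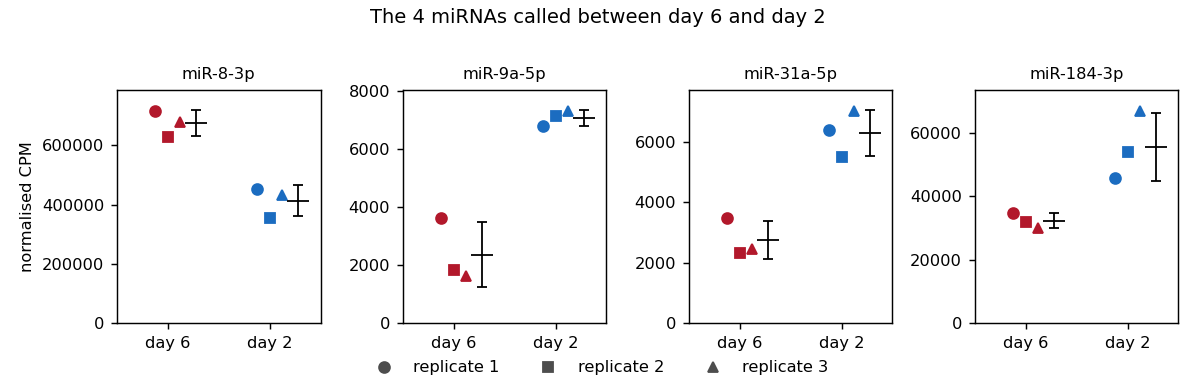
Normalised CPM (y axis, linear from 0) of the 4 called miRNAs in each library, day 6 left of day 2; symbols are replicates, and the black mark and bar are the mean and SD of 3 libraries. In each panel the 3 day 6 points lie on one side of the 3 day 2 points, above them for miR-8-3p and below them for miR-9a-5p, miR-31a-5p and miR-184-3p.

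These 4 kept their direction when any 1 library was left out, but the calls did not all hold. Leaving out day 6 replicate 1 or day 6 replicate 3 kept all 4. Leaving out day 6 replicate 2 ended all 4, with adjusted p between 0.0583 and 0.116, as did leaving out day 2 replicate 2, with adjusted p between 0.136 and 0.203. Without day 2 replicate 1, miR-8-3p (0.79, adjusted p = 0.000853) and miR-184-3p (-0.88, adjusted p = 0.00313) stayed called, and miR-9a-5p (-1.62, adjusted p = 0.0797) and miR-31a-5p (-1.16, adjusted p = 0.0591) did not. Without day 2 replicate 3, miR-8-3p alone stayed called (0.67, adjusted p = 0.0425). Over these 6 fits the log2 changes were 0.67 to 0.79 for miR-8-3p, -0.88 to -0.67 for miR-184-3p, -1.34 to -1.10 for miR-31a-5p and -1.99 to -1.38 for miR-9a-5p. Under limma-voom miR-184-3p was not called (-0.75, adjusted p = 0.0604).

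The libraries of the 2 ages did not overlap for 20 of the 61 miRNAs tested (32.8%), 8 with every day 6 library higher (13.1%) and 12 with every day 6 library lower (19.7%). The 4 called miRNAs are among them, and the other 16 did not pass the test. The split depends on the scaling: in shares of total counts, an alternative chosen after seeing the data, 2 had every day 6 library higher (3.28%) and 24 every day 6 library lower (39.3%). All 12 of the lower ones were among those 24, and the 2 higher were miR-8-3p and miR-34-5p. The 16 are described here by their values, and those that the naming rule did not give were chosen after their values were seen.

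The miR-263 pair, which protects sensory bristles from cell death in flies and acts on chitin metabolism in locusts, was lower in all 3 day 6 libraries. miR-263a-5p stood at 272, 165 and 300.4 CPM in the day 6 libraries, against 455, 650.3 and 727 CPM in the day 2 libraries (log2 change -1.31, SE 0.42, adjusted p = 0.146). miR-263b-5p stood at 93.3, 87.4 and 115 CPM in the day 6 libraries, against 145, 322 and 277 CPM in the day 2 libraries (log2 change -1.33, SE 0.47, adjusted p = 0.146). The 2 log2 changes were nearly equal.

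Both arms of miR-10, a miRNA encoded in the Hox gene cluster, were lower as well. miR-10-5p stood at 556, 542 and 259 CPM in the day 6 libraries, against 705, 1059 and 928 CPM in the day 2 libraries (log2 change -0.99, SE 0.41, adjusted p = 0.194). miR-10-3p stood at 94.7, 72 and 55.4 CPM in the day 6 libraries, against 135, 206 and 205 CPM in the day 2 libraries (log2 change -1.29, SE 0.44, adjusted p = 0.146). Both arms of miR-9a were lower: miR-9a-3p, the minor arm beside the called miR-9a-5p, had 70.2, 20.6 and 60.2 CPM in the day 6 libraries, against 91.1, 108 and 115 CPM in the day 2 libraries (log2 change -1.04, SE 0.51, adjusted p = 0.239).

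At low counts, miR-282-5p and miR-92a-3p were lower in all day 6 libraries. miR-282-5p had 42, 7 and 7 counts in the day 6 libraries, against 135, 32 and 56 counts in the day 2 libraries (log2 change -1.63, SE 0.59, adjusted p = 0.146), and it was called lower without day 6 replicate 1 (log2 change -2.50, adjusted p = 0.0297). miR-92a-3p had 10, 9 and 25 counts in the day 6 libraries, against 62, 34 and 27 counts in the day 2 libraries (log2 change -1.12, SE 0.45, adjusted p = 0.194). The limit that a count of 0 allows, 3 counts, was 2.10 to 5.14 CPM in the day 6 libraries and 1.24 to 3.50 CPM in the day 2 libraries, and these limits cover counting error only. let-7-5p and miR-278-3p also lay lower without overlap, and they are described with the hormone-related miRNAs. miR-193, with 11, 2 and 4 counts in the day 6 libraries, against 24, 15 and 8 counts in the day 2 libraries, was too low to be tested.

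Among the miRNAs with every day 6 library higher under TMM factors, miR-34-5p, which ecdysone represses in flies and which protects the ageing fly brain, stood at 2166, 1807 and 4408 CPM in the day 6 libraries, against 1099, 1163 and 1587 CPM in the day 2 libraries (log2 change 1.12, SE 0.38, adjusted p = 0.146). Day 6 replicate 3 was the highest, and without it the log2 change was 0.65. miR-252-5p stood at 3690.3, 4433 and 4147 CPM in the day 6 libraries, against 2438, 2563 and 3119.6 CPM in the day 2 libraries (log2 change 0.60, SE 0.21, adjusted p = 0.146), with less spread than miR-34-5p. miR-750 stood at 1632, 1635 and 2746 CPM in the day 6 libraries, against 801, 731 and 1589 CPM in the day 2 libraries (log2 change 0.95, SE 0.40, adjusted p = 0.194), and its highest day 2 library came close to its lowest day 6 library. miR-13b-3p, a locust regulator of Notch with its cluster partners, stood at 10773, 9946 and 9666 CPM in the day 6 libraries, against 7661, 7874 and 8649.9 CPM in the day 2 libraries (log2 change 0.33, SE 0.16, adjusted p = 0.239). With total counts its log2 change was 0.015 and its shares overlapped between ages. The remaining 3 were miR-79-3p (log2 change 0.46, SE 0.28, adjusted p = 0.30), miR-252a-3p (log2 change 0.27, SE 0.37, adjusted p = 0.609) and a minor form of miR-13b-3p known by its Drosophila row (log2 change 0.59, SE 0.36, adjusted p = 0.293). That minor form had 11 to 43 counts per library, and the shares of total counts of all 3 overlapped between ages.

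**Figure D3:**
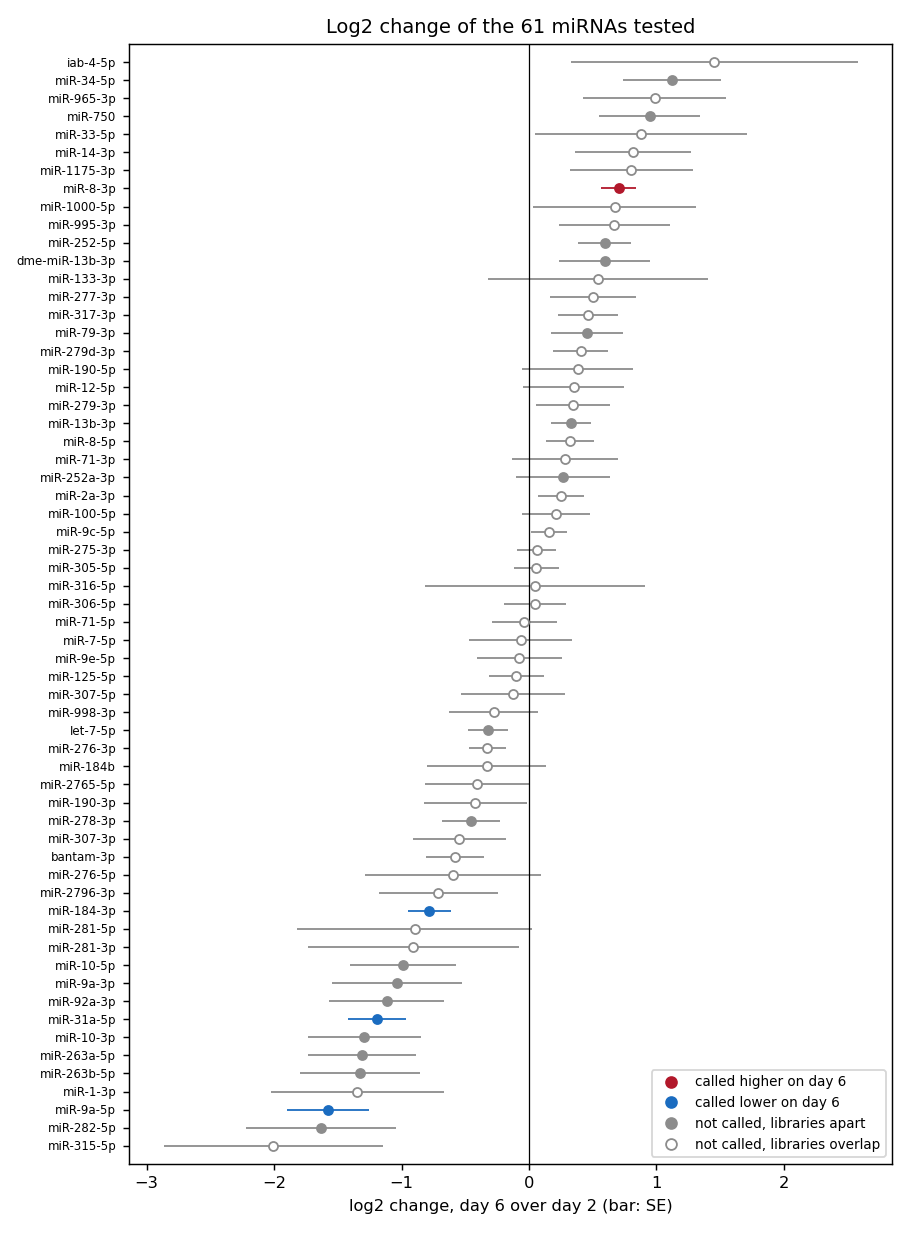
Log2 change of day 6 over day 2 (x axis) of the 61 miRNAs tested, ordered from the most positive at the top; bars are 1 SE, red and blue points are called, filled grey points are not called but have libraries that do not overlap, and open points overlap. The changes of largest size, those of miR-315-5p at -2.01 and miR-282-5p at -1.63, carry SEs of 0.86 and 0.59 and are not called.

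The 3 day 4 libraries helped to decide which rows were joined but did not enter the 6-library fit, and their levels are set beside those of the other ages here. With TMM factors over the 9 libraries of days 2, 4 and 6, the day 4 mean lay between the means of the other ages for all 4 called miRNAs, for 17 of the 20 whose libraries did not overlap, and for 33 of the 61 tested. The 4 and the 20 were picked by their gap between day 6 and day 2 in these libraries. Such a gap makes a day 4 mean between the 2 likelier, so these counts do not test a gradual course. The same holds for the miRNAs called in the 9-library fit below. miR-8-3p averaged 408668 ± 41917 CPM on day 2, 544747 ± 28552 CPM on day 4 and 673481 ± 18664 CPM on day 6. miR-31a-5p averaged 6215 ± 224 CPM on day 2, 4416 ± 594 CPM on day 4 and 2744 ± 495 CPM on day 6. miR-9a-5p averaged 7054 ± 754 CPM on day 2, 4865 ± 1031 CPM on day 4 and 2347 ± 991 CPM on day 6. miR-184-3p averaged 54786 ± 7384 CPM on day 2, 35462 ± 775 CPM on day 4 and 32339 ± 1649 CPM on day 6, so that its day 4 mean lay close to its day 6 mean, whereas those of miR-8-3p, miR-31a-5p and miR-9a-5p lay near the middle.

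When those 9 libraries shared 1 estimate of the spread, 10 of 63 miRNAs were called between day 6 and day 2, 4 higher (6.35%) and 6 lower (9.52%). All 4 calls of the 6-library fit were among them. The other 6 were miR-263a-5p (-1.30, adjusted p = 0.0311), miR-263b-5p (-1.32, adjusted p = 0.0428), miR-10-3p (-1.29, adjusted p = 0.0311), miR-252-5p (0.62, adjusted p = 0.0311), miR-34-5p (1.15, adjusted p = 0.0428) and miR-750 (1.01, adjusted p = 0.0493). Their log2 changes differed from those of the 6-library fit by less than their SEs. miR-263a-5p averaged 605 ± 131 CPM on day 2, 473 ± 129 CPM on day 4 and 245 ± 67.8 CPM on day 6, and miR-10-3p averaged 181 ± 45.4 CPM on day 2, 159.9 ± 25.9 CPM on day 4 and 73.8 ± 17.2 CPM on day 6. For both, the day 4 mean was nearer to the day 2 mean. miR-750 averaged 1002 ± 338 CPM on day 2, 2394 ± 183 CPM on day 4 and 2012 ± 668 CPM on day 6, the only 1 of the 10 whose day 4 mean lay outside the other 2.

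**Figure D4:**
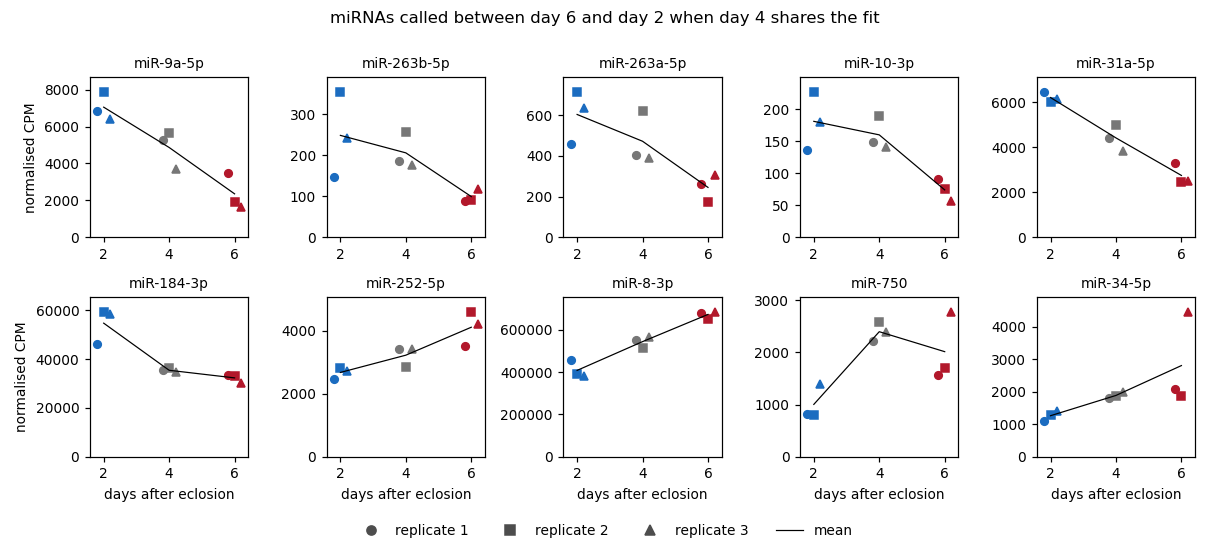
Normalised CPM (y axis, linear from 0, factors over 9 libraries) against days after eclosion (x axis) for the 10 miRNAs called between day 6 and day 2 when the day 4 libraries shared the fit; symbols are replicates and the line joins the means. The day 4 mean lies between the other means in 9 panels and above both in that of miR-750.

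For the lists of related miRNAs that follow, the measure over all 61 is 1.64% called higher, 4.92% called lower and a median log2 change of 0.045. With total counts the median over all 61 was -0.25, and every call but that of miR-8-3p was lower. The let-7 complex, a cluster of let-7, miR-100 and miR-125 that is switched on by hormones and times the passage from juvenile to adult in flies, had 0 of 3 members called, with a median log2 change of -0.10. let-7-5p stood at 9111, 9096 and 10895 CPM in the day 6 libraries, against 12019.7, 12118 and 12295 CPM in the day 2 libraries (log2 change -0.32, SE 0.16, adjusted p = 0.239). The day 6 libraries were all lower, and the day 2 libraries nearly equal. miR-100-5p stood at 11055, 10205 and 14938 CPM in the day 6 libraries, against 6782, 12774 and 11698 CPM in the day 2 libraries (log2 change 0.21, SE 0.27, adjusted p = 0.578), with 1 low day 2 library and overlap. miR-125-5p had a log2 change of -0.10 (SE 0.21). With total counts let-7-5p was called lower (-0.64, adjusted p = 0.0284) and the sign of miR-100-5p turned (-0.12).

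The miRNAs reported to target Kr-h1, the transcription factor that carries the juvenile hormone signal, also had 0 of 4 measured members called, with 2 log2 changes above 0 and 2 below and a median of -0.035. miR-278-3p, which sets energy balance in flies, stood at 4374, 2767 and 3987 CPM in the day 6 libraries, against 5047, 4619 and 5593 CPM in the day 2 libraries (log2 change -0.46, SE 0.23, adjusted p = 0.239). Its day 6 libraries lay lower, the nearest by a small margin. With total counts it was called lower (-0.78, adjusted p = 0.0284). miR-2a-3p stood at 19809, 14534 and 14875 CPM in the day 6 libraries, against 15133, 12569 and 13571 CPM in the day 2 libraries (log2 change 0.25, SE 0.18, adjusted p = 0.351), and its sign turned with total counts (-0.064). let-7-5p and miR-13b-3p are the other members. The list names miR-13a, and the group called miR-13b-3p has the counts of a beetle row named miR-13a-3p. DESeq2, which adjusted over fewer miRNAs than edgeR, called miR-13b-3p higher (0.37, adjusted p = 0.0497).

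The 9 hormone-responsive names were measured as 12 miRNAs, with the arms of a hairpin counted apart. Of these, 1 was called higher, miR-8-3p (1.64% of all 61), and 0 lower (4.92% of all 61). Of their log2 changes 7 were above 0 and 5 below, with a median of 0.24. Without day 6 replicate 3, 6 were above 0 and 6 below, and the median was 0.0031, against -0.066 for all. With total counts 5 were above 0 and 7 below, 1 was called higher and 2 lower, and the median was -0.079, against -0.25 for all. With DESeq2 and in the fit of the 9 libraries of days 2, 4 and 6, 3 were called higher in each, miR-8-3p, miR-252-5p and miR-34-5p, and 0 lower. Over all miRNAs, DESeq2 called 5 higher and 6 lower. The 9-library fit called 4 of 63 higher (6.35%) and 6 lower (9.52%).

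The names tied to metabolism in insects were measured as 7 miRNAs, with the arms of miR-8 counted apart. The listed miR-210, with 2 counts over the 6 libraries, was not among them. Of the 7, 1 was called higher, miR-8-3p (1.64% of all 61), and 0 lower (4.92% of all 61). For 6, both arms of miR-8 among them, the log2 change lay above 0, and the median was 0.50, against 0.045 for all. With total counts 5 lay above 0, miR-278-3p was called lower and the median was 0.20, against -0.25 for all. Without day 6 replicate 3, 5 lay above 0 and the median was 0.34, against -0.066 for all. In that fit 2 were called higher, miR-8-3p and miR-33-5p, and no miRNA outside this list was called higher. miR-277-3p, which restrains breakdown of branched-chain amino acids in flies, stood at 635, 835 and 1012 CPM in the day 6 libraries, against 659, 528 and 563 CPM in the day 2 libraries (log2 change 0.50, SE 0.34, adjusted p = 0.328). The lowest day 6 library fell within the day 2 range. miR-8-5p, the other arm of miR-8, stood at 24661, 27586 and 23419 CPM in the day 6 libraries, against 25152, 16496 and 18724 CPM in the day 2 libraries (log2 change 0.33, SE 0.19, adjusted p = 0.288), and the highest day 2 library lay within the day 6 range. miR-305-5p, which acts with insulin and Notch signalling in the fly gut, had a log2 change of 0.059 (SE 0.18).

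The miRNAs needed for egg production in mosquitoes were measured as 4 miRNAs, the arms of miR-8, miR-275 and miR-277, with 1 called higher (miR-8-3p), 0 lower and a median of 0.41. miR-275-3p, which governs blood digestion and egg development in mosquitoes, stood at 20823, 20180.3 and 24327 CPM in the day 6 libraries, against 19373, 20085 and 23143 CPM in the day 2 libraries (log2 change 0.062, SE 0.15, adjusted p = 0.789), and its groups overlapped. Its clustered neighbour is miR-305-5p, and both members of that cluster were uncalled, with a median of 0.06. With total counts both were below 0, at -0.25 and -0.25.

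The list of chitin metabolism and moulting of locusts was measured as 6 miRNAs, with both arms of miR-71 and a form named miR-184b counted apart. A part of each of these forms in those processes was not tested. Of the 6, 1 was called lower, miR-184-3p (4.92% of all 61), and 0 higher (1.64% of all 61). The log2 changes of 5 were below 0, and the median was -0.56, against 0.045 for all. miR-71-5p, which acts on a chitin synthase in locusts, stood at 3127, 2978 and 4919 CPM in the day 6 libraries, against 3274, 4184 and 3839.5 CPM in the day 2 libraries (log2 change -0.035, SE 0.26, adjusted p = 0.909), and miR-71-3p had a log2 change of 0.28 (SE 0.42). A form named miR-184b only in an aphid, which may share reads with miR-184-3p, had a log2 change of -0.33 (SE 0.47). In 3 of the 6, miR-184-3p and the miR-263 pair, every day 6 library lay below every day 2 library, as in 19.7% of all 61. With total counts, with DESeq2 and in the 9-library fit these 3 were called lower, and with total counts all 6 log2 changes were below 0. Over all miRNAs, DESeq2 called 6 lower and the 9-library fit 6 of 63 (9.52%). With total counts every call but that of miR-8-3p was lower, and the median over all 61 was -0.25.

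The 5 growth and survival names were measured as 7 miRNAs, with miR-8-5p and miR-184b counted apart. Of these, 1 was called higher (miR-8-3p), against 1.64% of all 61, and 1 lower (miR-184-3p), against 4.92%. Their median was -0.33, against 0.045. bantam-3p, among the most abundant miRNAs, stood at 67295, 53800.4 and 39897 CPM in the day 6 libraries, against 94100.5, 62504 and 84297 CPM in the day 2 libraries (log2 change -0.58, SE 0.23, adjusted p = 0.189). Only the lowest day 2 library fell within its day 6 range. With total counts it was called lower (-0.88, adjusted p = 0.025). So was the also abundant miR-276-3p, at -0.64 (adjusted p = 0.0117), while with TMM factors it stood at 101368, 85007 and 84718 CPM in the day 6 libraries, against 99823, 111598 and 128210 CPM in the day 2 libraries (log2 change -0.33, SE 0.15, adjusted p = 0.226).

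Lists named after genomic clusters are given next, with members taken by name and their genomic places not checked. The group of miR-9, of miR-79 and of miR-306 takes in both arms of miR-9a and miR-9e-5p by their number. Of its 6 members 1 was called lower (miR-9a-5p) and 0 higher, with log2 changes from -1.58 to 0.46 and a median of -0.015. The -1.58 was that of miR-9a-5p, while miR-9c-5p, miR-306-5p and miR-79-3p had log2 changes of 0.16, 0.045 and 0.46. The group's abundant members miR-9c-5p, at 30043 ± 1474 CPM on day 6 and 26941 ± 2959 CPM on day 2, and miR-306-5p, at 21282 ± 5717 CPM on day 6 and 20625 ± 4309.6 CPM on day 2, overlapped between ages. With total counts both had log2 changes below 0 (-0.15 and -0.25). The group of miR-2, of miR-13 and of miR-71, whose members jointly target Notch in the locust ovary, was measured as 5 miRNAs. Both arms of miR-71 and the minor form of miR-13b-3p, at 11 to 43 counts per library, were counted apart. Of the 5, 0 were called and 4 log2 changes were above 0, with a median of 0.28. With total counts 2 were above 0 and the median was -0.042, against -0.25 for all. DESeq2 called 1, miR-13b-3p, higher. In the group of miR-277, of miR-34 and of miR-317, 0 of 3 were called and all 3 log2 changes were above 0, also with total counts, with a median of 0.50 (0.20 with total counts). miR-34-5p was called higher with DESeq2 (1.17, adjusted p = 0.0114) and in the 9-library fit. miR-317-3p stood at 4219, 4872 and 6255 CPM in the day 6 libraries, against 3789.7, 2960.2 and 4377 CPM in the day 2 libraries (log2 change 0.46, SE 0.24, adjusted p = 0.245). The Hox cluster miRNAs had 0 of 3 called and a median of -0.99: both arms of miR-10 were lower, and iab-4-5p had 20, 68 and 2 counts in the day 6 libraries, against 45, 12 and 13 counts in the day 2 libraries. miR-10-3p was called lower with total counts (-1.62, adjusted p = 0.0353), with DESeq2 (-1.25, adjusted p = 0.0179) and in the 9-library fit. The miR-92 family was measured as miR-92a-3p and the group of miR-12, of miR-283 and of miR-304 as miR-12-5p (log2 change 0.35, SE 0.40, adjusted p = 0.546), and neither was called.

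For 8 hairpins both arms were measured, and their ratio within a library, taken after adding 0.5 to each count, does not depend on the scaling. The log2 ratio of miR-8-5p to miR-8-3p counts was -4.86, -4.51 and -4.86 in the day 6 libraries, against -4.17, -4.42 and -4.53 in the day 2 libraries. The difference of the means was -0.37 (two-sided exact permutation test, p = 0.2, adjusted p = 0.48 over the 8 hairpins), and the groups overlapped. The ratio of miR-307-5p to miR-307-3p, -5.76 ± 0.24 on day 6 and -6.15 ± 0.12 on day 2, was the only 1 of the 8 with no overlap (exact permutation test, p = 0.1, adjusted p = 0.48). With 3 libraries per age no hairpin could pass the threshold.

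The ratio of miR-276-5p to miR-276-3p stood out in 1 library: it was -5.97, -5.75 and -8.94 in the day 6 libraries, against -5.98, -6.27 and -5.95 in the day 2 libraries. In CPM, miR-276-5p stood at 1621, 1579 and 173 CPM in the day 6 libraries, against 1582, 1447 and 2067 CPM in the day 2 libraries (log2 change -0.60, SE 0.69, adjusted p = 0.548). The first 2 day 6 libraries lay within the day 2 range, and replicate 3 lay below it.

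Day 6 replicate 3 differed from the other day 6 libraries in further miRNAs by more than 3-fold. miR-33-5p, which sits within an SREBP gene, a master of lipid synthesis, in flies as in mammals, stood at 869, 879 and 57.8 CPM in the day 6 libraries, against 331, 259.9 and 389.9 CPM in the day 2 libraries (log2 change 0.88, SE 0.83, adjusted p = 0.49): the first 2 day 6 libraries were above every day 2 library and replicate 3 below them all. Without day 6 replicate 3 it was called higher (log2 change 1.44, adjusted p = 0.0243). miR-14-3p, which limits fat storage and cell death in flies, stood at 24523, 21044 and 77001 CPM in the day 6 libraries, against 23634, 20512 and 25455 CPM in the day 2 libraries (log2 change 0.82, SE 0.46, adjusted p = 0.282), and its log2 change without day 6 replicate 3 was -0.019. miR-316-5p was also high and iab-4-5p low in that library. By the same measure, day 6 replicate 1 was low in 4 miRNAs and day 6 replicate 2 high in 3, while day 2 replicate 1 differed in 0 miRNAs, day 2 replicate 2 in 1 and day 2 replicate 3 in 3, among them miR-315-5p at 32.3, 72 and 85.1 CPM in the day 6 libraries, against 117, 65.3 and 578 CPM in the day 2 libraries.

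Markers of other tissues were read in the same libraries; no miRNA that defines the fat body itself was listed. Both measured muscle miRNAs, miR-1-3p and miR-133-3p, of 3 listed were uncalled, and their summed level ran from 121 to 723 CPM in the day 6 libraries and from 469 to 1105 CPM in the day 2 libraries. miR-1-3p stood at 63.8, 447 and 301 CPM in the day 6 libraries, against 438, 895 and 728 CPM in the day 2 libraries (log2 change -1.35, SE 0.68, adjusted p = 0.239), and miR-133-3p at 56.8, 276 and 91.6 CPM in the day 6 libraries, against 30.9, 209.8 and 50 CPM in the day 2 libraries (log2 change 0.54, SE 0.86, adjusted p = 0.639). The second library of each age was the highest for both. Leaving out 1 library gave log2 changes of -1.91 to -0.84 for miR-1-3p, the smallest in size without day 6 replicate 1 and the largest without day 6 replicate 2. The arms of miR-281, a gut miRNA, summed to 67.4 to 679 CPM in the day 6 libraries and 207 to 1018 CPM in the day 2 libraries, and neither arm was called, with log2 changes of -1.77 to -0.42 for miR-281-3p when 1 library was left out; miR-1174, the other gut marker listed, had 0 counts in all 6. Of the neuronal markers, miR-7-5p stood at 449.7, 811 and 475 CPM in the day 6 libraries, against 499, 519.8 and 797 CPM in the day 2 libraries (log2 change -0.066, SE 0.41, adjusted p = 0.904), while miR-124 had 14 counts over the 6 libraries, 13 of them in day 6 replicate 2, and miR-137 had 5. All 7 miRNAs of the ovary and early embryo list were at 0 counts in the 6 libraries. The part of muscle or gut tissue in the values above was not tested.

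**Figure D5:**
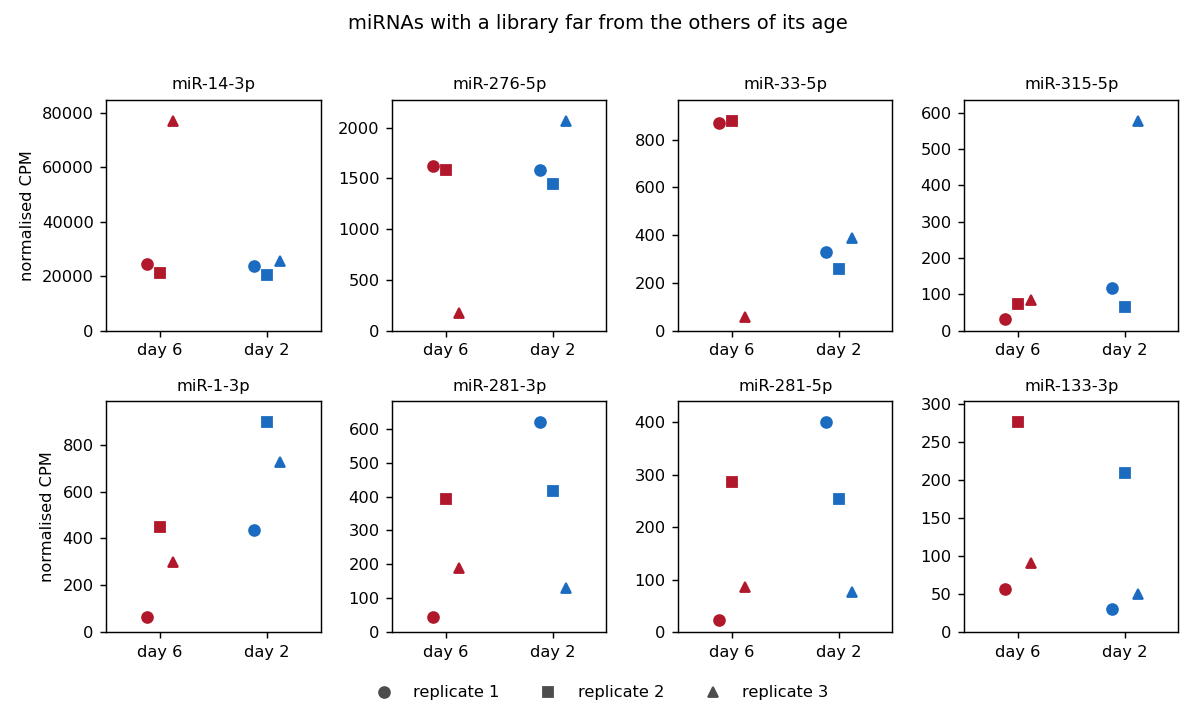
Normalised CPM (y axis, linear from 0) in each library, day 6 left of day 2, for 8 miRNAs in which some library lay more than 3-fold from both others of its age; symbols are replicates. Day 6 replicate 3 (triangle) is the high point for miR-14-3p and the low point for miR-276-5p and miR-33-5p, and replicate 2 (square) is the high point of both ages for miR-133-3p.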

How the data were processed

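RNA was extracted from fat body with TRIzol and made into standard Illumina libraries, per the labels' protocols. The authors deposited raw counts for 26711 mature miRNA names under 115 species prefixes. Neither the aligner, nor its settings, nor the genome is given in the sources used here. Titles gave the groups and replicate numbers, and 0 columns belonged to other samples.

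Many rows of different species repeat the same counts, so reads appear to be counted under every matching name. The 910 arthropod rows holding 90 counts or more in the 9 libraries of days 2, 4 and 6 together were joined when rows of 1 miRNA number matched within 25% plus 5 counts (other numbers within 5% plus 3), which gave 96 profiles. Those that stayed at a fixed share of a larger profile with the same number, arm and letter (factor 1.5 or 2.5 counting SDs, 1 exception) were merged into it, which gave 63 miRNAs, each with the counts of its most abundant row. Paralogues may still be split or merged.

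edgeR 4.0.16 under R 4.3.3 (TMM, filterByExpr with minimum count 10, glmQLFit, glmQLFTest, no covariate) was fitted to the 6 libraries. The same test was also run on simulated data. Where the simulated ages differed 2-fold in a miRNA, it was called in 23.7% of cases, and where they differed 4-fold, in 79%. Among the simulated calls, 6% were false. The absence of a call is thus weak evidence that a miRNA did not change 2-fold. An SE is the size of the log2 change over the square root of F. Named miRNAs are called ones with at least 10 CPM and no overlap, the 10 most abundant and the lowest p of each list; others were chosen after their values were seen. The comparison, lists and rule were chosen with earlier results of these data known. No library repeated another of its age within counting noise (chi-square per degree of freedom at least 70.8); whether libraries share RNA or animals was not tested. As alternatives the filter was dropped, factors were RLE or total counts, the tool was DESeq2 1.42.0 or limma-voom 3.58.1, and there were fits with a replicate block, 9 libraries, other joining or naming, omission of miR-8-3p and omission of each library.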

Additional observations from a re-analysis of the deposited data

How the results depend on the processing

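The count of called miRNAs, 4 (1 higher, 3 lower), was 3 or 4 with RLE factors, no filter, limma-voom, joining over 12 libraries, the first joining step alone, names of all species, or without the most abundant miRNA. In shares of total counts, chosen after seeing the data, the miRNAs without overlap were 2 higher and 24 lower, against 8 and 12 with TMM factors. The count of calls was 11 with total counts, 11 with DESeq2, 10 with the 9 libraries of days 2, 4 and 6, and 56 with rows not joined, where 1 miRNA is counted under many names. Leaving out each library gave 0 to 5, with 0 without day 6 replicate 2 and 0 without day 2 replicate 2 (12 and 11 at an unadjusted p under 0.05 in edgeR), 2 without day 2 replicate 1 and 1 without day 2 replicate 3; fewer libraries also leave fewer degrees of freedom. The difference in the share of miR-8-3p was 13.7 to 15.9 percentage points under these omissions. With the replicate block 0 were called (edgeR, 15 at an unadjusted p under 0.05, and no other tool was run with the block). Deviations of same-numbered day 6 and day 2 libraries correlated at -0.0161, 0.228 and 0.117, not all above 0.1; differently numbered ones ran from -0.319 to 0.181, and 2 of 3 day 6 libraries correlated best with their own number. The labels give the numbers no meaning, so pairing was not taken as shown. Signs turned for uncalled miRNAs: with total counts those of miR-2a-3p (-0.064), miR-9c-5p (-0.15), miR-275-3p (-0.25) and miR-306-5p (-0.25); without day 6 replicate 3 those of miR-14-3p (-0.019 to 1.14 over all omissions) and miR-275-3p (-0.017 to 0.15); that of miR-306-5p without day 6 replicate 1 (-0.10) or day 2 replicate 2 (-0.0056), over a range of -0.10 to 0.24; and that of miR-7-5p with RLE factors (0.0087), DESeq2 (0.0065), joining over 12 libraries (0.043), or when replicate 1 or 3 of day 6 or replicate 3 of day 2 was omitted, with -0.38 to 0.16 over the omissions. Apart from the effects of scaling and of fewer libraries, which follow from how those fits are built, the cause was not tested.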

Other observations

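Names held by no arthropod were left out above. When names of all species were joined in the same way, 81 groups resulted, of which 18 had no arthropod name; 17 of these were tested and 0 were called with edgeR, adjusted over all groups of that fit, with 4 at an unadjusted p under 0.05; no other tool was run on them. A row named miR-8a-3p in a flatworm, which may hold reads of locust miR-8-3p, had 34853, 15213 and 30734 counts in the day 6 libraries, against 43819, 12960 and 18062 counts in the day 2 libraries (log2 change 0.52, SE 0.15, adjusted p = 0.119). A row named miR-2478 in cattle had 626, 266 and 454 counts in the day 6 libraries, against 518, 164 and 211 counts in the day 2 libraries (log2 change 1.0, SE 0.31, adjusted p = 0.119). A row named miR-1260 in hamster had 153, 57 and 56 counts in the day 6 libraries, against 78, 25 and 34 counts in the day 2 libraries (log2 change 1.35, SE 0.46, adjusted p = 0.128). The row of miR-236 had 35, 18 and 30 counts in the day 6 libraries, against 29, 7 and 11 counts in the day 2 libraries. Its log2 change was 1.29 (SE 0.41, adjusted p = 0.119). These 4 are the rows with an unadjusted p under 0.05, and the next row is not among them. miR-33a, named in a lamprey, had 80, 21 and 5 counts in the day 6 libraries, against 18, 4 and 11 counts in the day 2 libraries and was lowest of the day 6 libraries in replicate 3, as miR-33-5p was.

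Vertebrate names were present at low counts in both ages. miR-378a-3p had 40, 62 and 44 counts in the day 6 libraries, against 22, 72 and 17 counts in the day 2 libraries, and the vertebrate form of miR-1-3p had 25, 50 and 48 counts in the day 6 libraries, against 20, 53 and 30 counts in the day 2 libraries. In both, the second library of each age held the highest count, as it did for miR-133-3p.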
